A study of Mus musculus with 12 samples.

Results

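The severe FSHD-like DUX4 model was compared with its ACTA1-MCM control in gastrocnemius muscle by RNA-seq. The members of the comparison are the 6 libraries that the labels assign to these groups, 3 severe mice and 3 control mice, of 12 libraries in the series. Facioscapulohumeral muscular dystrophy (FSHD) is caused by expression of DUX4, a transcription factor of the early embryo, in skeletal muscle, where it is toxic to muscle fibers. Severe mice (FLExDUX4/+;MCM/+) carried both transgenes. They received tamoxifen (TMX) at 10 mg/kg by intraperitoneal injection, given as 2 injections on consecutive days. Control mice (ACTA1-MCM/+) carried the Cre transgene alone. Their labels list no TMX, but the study also kept ACTA1-MCM/+ mice that received TMX as controls, and whether the sequenced controls received it is in doubt. If the labels hold, the effects of TMX and of DUX4 cannot be told apart here, and in either case those of DUX4 and of carrying the FLExDUX4 transgene are compared together. Moderate mice (FLExDUX4/+;MCM/+) received 1 injection of 5 mg/kg and are used below only to show where the severe group differs. FLExD mice (FLExDUX4/+) carried the DUX4 transgene without Cre, and their labels list no TMX. They are part of the fit and are set beside the severe mice only for Esr1. All mice were 13 weeks old, and the severe and moderate muscles were taken at day 9 after TMX.

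Both transgenes limit the model. The ACTA1 promoter makes the TMX-inducible Cre (MerCreMer, a Cre fused on both sides to a part of the estrogen receptor) in skeletal muscle fibers. DUX4 is then made from the Rosa26 locus mainly in those nuclei in which Cre has turned the transgene around, so its expression is mosaic. The paper reports that Cre also acts in a small part of the nuclei without TMX. Mice with both transgenes therefore made some DUX4 before any injection, and TMX raised a level that was already present. Muscle responds to fiber death in a known order. Macrophages enter and clear debris, satellite cells divide and fuse into new fibers, and these first make embryonic forms of the contractile proteins before the adult forms replace them. In bulk muscle, fewer cells of a type and less RNA per cell cannot be told apart, which applies to every gene group below.

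The libraries held 23796902 to 24448547 expected counts in the severe mice and 27356141 to 29136403 in the controls. Levels are given as CPM, which are counts brought to a common library size after adjustment by TMM, a scaling that centers the bulk of genes, and 3 counts correspond to between 0.0676 and 0.155 CPM in the severe and control libraries. Where 3 values are listed, they follow the order of mice 1047, 1066 and 1079 for severe and 1127, 1246 and 1349 for control. Human DUX4 has no row in the mouse tables, so the transgene itself was read through other genes. Wfdc3, a mouse gene known to respond to DUX4 (chr2:164731180-164745931), was at 0.155, 0.385 and 0.142 CPM in the controls and at 62.6, 84.3 and 116 CPM in the severe mice. Trim36, another such gene, was at 0.674, 0.867 and 0.616 CPM against 2.95, 2.08 and 1.93 CPM. The groups did not overlap for either gene. A list of 12 mouse cleavage-stage genes, among them Dux itself, stayed near the detection limit. Their summed level was 0.311, 0.674 and 0.664 CPM in the controls and 0.767, 0.542 and 0.556 CPM in the severe mice. Of the 12 listed, 1 was abundant enough to be tested (Usp17la, log2 fold change 0.16 ± 0.41 (SE), edgeR adjusted p = 0.74), and Zscan4c had 0 counts in all 6 mice. The rest were too low to be tested.

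The MerCreMer transgene could be followed through Esr1, whose estrogen receptor sequence it shares. Esr1 was at 715, 422 and 819 CPM in the controls and at 35.2, 37.4 and 35.6 CPM in the severe mice (log2 fold change -4.18 ± 0.23 (SE), edgeR adjusted p = 2.5e-09). With TMM, the severe level overlapped that of FLExD mice, which lack MerCreMer and were at 29.7, 27.5 and 37.9 CPM. Before scaling, Esr1 had 1562, 1586 and 1475 counts in the severe mice and 604, 554 and 786 in the FLExD mice. The FLExD libraries were the larger ones, so the overlap rests on the scaling. The expected count per TPM, relative to the median gene of each library, follows the transcript length that was assigned to the reads. For Esr1 it was 1.03 to 1.07 in the controls, 1.27 to 1.42 in the severe mice and 3.20 to 3.58 in the FLExD mice. By this measure the severe libraries were closer to the controls that carry MerCreMer than to the FLExD mice that lack it. Acta1, the skeletal actin gene whose promoter drives MerCreMer, fell over the same contrast (log2 fold change -3.48 ± 0.18 (SE), edgeR adjusted p = 7.6e-10), and the part of this fall in the Esr1 value was not tested.

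The makeup of the libraries differed before any gene was tested. In the controls, the 20 genes with the largest counts held 57.7% to 58.5% of all counts, and in the severe mice the same genes held 30.4% to 33.2%. Beside muscle genes such as Ttn and Myh4, these 20 include the noncoding RNAs mt-Rnr2, mt-Rnr1, Rn7sk and entries named Metazoa_SRP. It took the 10 to 12 largest genes to reach 50% of the counts in a control library and the 218 to 287 largest in a severe library. The 8 muscle fiber markers held 10.7% to 14.9% of control counts and 1.78% to 3.08% of severe counts. Genes of the mitochondrial genome went from 25.3% to 34.5% down to 19.2% to 20.5%. Moderate libraries lay between the 2 groups for the largest genes and for the fiber markers.

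**Figure D1:**
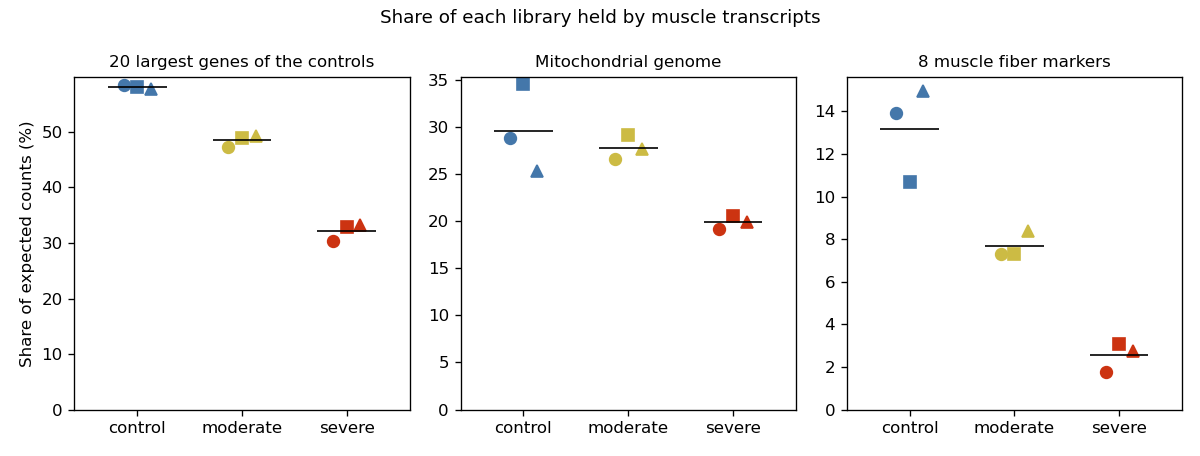
Share of expected counts (%) per library held by the 20 largest control genes, the mitochondrial genome and 8 muscle fiber markers, with 1 point per mouse and the group mean as a line. The severe libraries lie at 30.4% to 33.2% for the largest genes against 57.7% to 58.5% in the controls. The 20 largest control genes include noncoding RNAs, so that share is not limited to muscle mRNA.

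How many genes were called in each direction depended on the scaling. A gene was called where its adjusted p was below 0.05 and its log2 fold change was 0.5 or more in either direction. With TMM, 10128 of 16679 genes tested were called (60.7%), of which 5480 were higher in severe (32.9%) and 4648 lower (27.9%). With library size alone, 12580 were higher and 1070 lower. The median log2 fold change of all genes was 0.08 with TMM and 1.39 with library size alone, so every change below is relative to the bulk of the transcriptome. The 3 severe and the 3 control mice did not overlap for 12501 genes (75.0%). These rates are the background against which the counts of each list are to be read. No set test was made, and lists are described by their counts and medians.

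The 12 largest increases were taken among called genes of at least 100 CPM in the higher group whose severe and control mice did not overlap. Separate groups are thus a condition of this choice and not a finding. Spp1, the cytokine and matrix protein osteopontin (chr5:104435118-104441050), was at 0.674, 1.2 and 1.61 CPM in the controls and at 209, 151 and 129 CPM in the severe mice (log2 fold change 7.11 ± 0.37 (SE), edgeR adjusted p = 1.6e-08). Postn, a matrix protein of wound fibroblasts, went from 5.6, 12.7 and 20.9 CPM to 928, 600.0 and 852 CPM. Ctss, a lysosomal cathepsin of macrophages, went from 6.63, 6.41 and 6.12 CPM to 298, 238 and 249.99 CPM (log2 fold change 5.36 ± 0.17 (SE), edgeR adjusted p = 4e-11). For each of these genes the gap between the lowest severe mouse and the highest control was wide. The other increases of this rank were Myh3, Mki67, Myh8, Prune2, Lgals3, Dclk1, Gpnmb, Col8a1 and Tmsb10, with log2 fold changes between 4.23 and 6.80. Dclk1 is a microtubule-associated kinase, Lgals3 and Gpnmb are made by activated macrophages, and Tmsb10 binds actin monomers.

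The 12 largest decreases by the same rule began with the slow-fiber genes Myl2, Myl3 and Myh7. Ampd1, the AMP deaminase of muscle, fell from 1114, 1032 and 1470 CPM to 17.6, 21.3 and 25.1 CPM (log2 fold change -5.82 ± 0.20 (SE), edgeR adjusted p = 5.8e-11). Plcd4, a phospholipase C, fell from 141, 106 and 144 CPM to 0.857, 1.51 and 2.22 CPM (log2 fold change -6.41 ± 0.27 (SE), edgeR adjusted p = 8.6e-10). Car3, the carbonic anhydrase of muscle and fat, fell from 3026, 2328 and 2331 CPM to 69.3, 113 and 89.2 CPM. The spread within each group was small beside the gap between the groups for these 3 genes. Ankrd23, a titin-associated ankyrin repeat protein, had a log2 fold change of -5.37 ± 0.19 (SE), and Perm1, a muscle regulator of mitochondrial genes, had -4.87 ± 0.35 (SE). Myl2, Myl3, Myh7, Myh2, Tcap, Pvalb and Mylk2 complete the group and are described with their gene families.

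**Figure D2:**
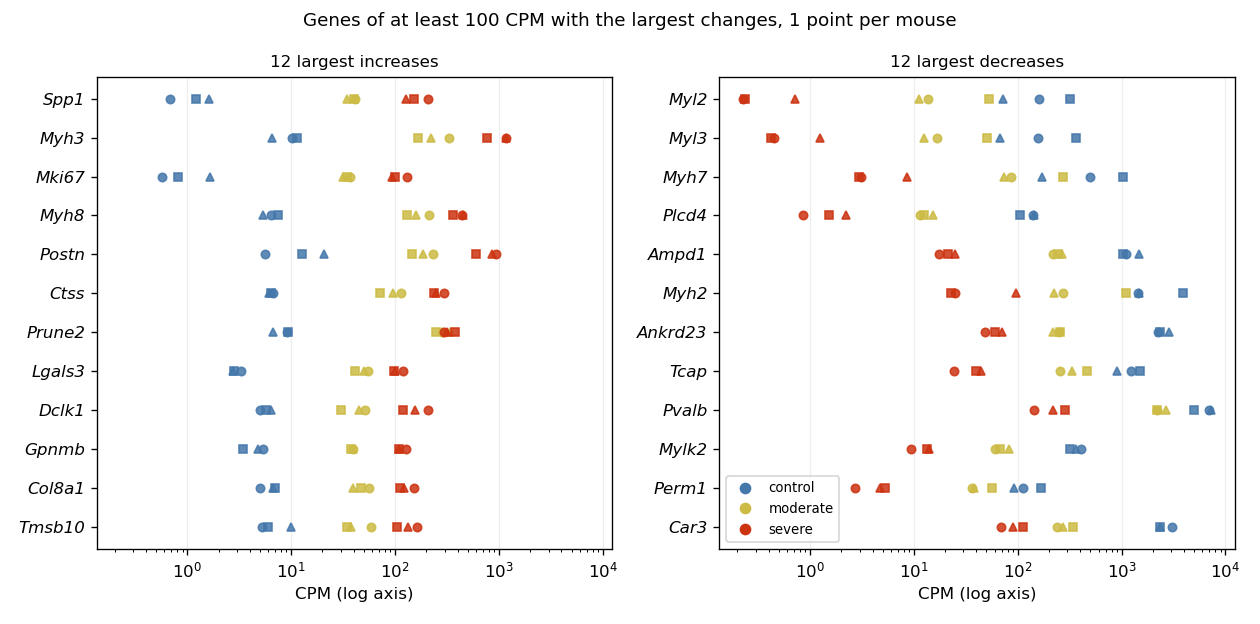
CPM per mouse (log axis) of the 12 genes with the largest increase and the 12 with the largest decrease among genes of at least 100 CPM in the higher group. Control and severe mice are separate for all 24 genes because the rule took only genes whose groups did not overlap. The moderate mice are drawn for comparison.

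Adult fast-fiber sarcomere genes fell without exception. All 15 tested were lower, with a median log2 fold change of -3.53, and all 15 were also lower with library size alone. Myh4, the myosin heavy chain of the fastest fibers, went from 86693, 58766 and 92481 CPM to 3545, 8146 and 6622 CPM (log2 fold change -3.70 ± 0.33 (SE), edgeR adjusted p = 1.5e-07). Mylk2, the kinase that phosphorylates the myosin light chain, went from 409.8, 319 and 366 CPM to 9.47, 13.4 and 14 CPM (log2 fold change -4.89 ± 0.18 (SE), edgeR adjusted p = 7.6e-11). Myh2, the heavy chain of type 2A fibers, was at 1425, 3909 and 1472 CPM in the controls, with 1 mouse well above the other 2, and at 25, 22.6 and 96.5 CPM in the severe mice (log2 fold change -5.56 ± 0.98 (SE), edgeR adjusted p = 0.00065).

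All 8 muscle fiber markers fell under both scalings, with a median log2 fold change of -3.68, and their promoters were looked up because they moved together. RefSeq (GRCm38.p6) windows of 300 bases, from 250 before to 50 after the start, were available for 7 of them. An E-box of the letters CAGCTG, which reads the same on both strands and is of the kind that MyoD and myogenin bind, was found in 6 of 7, against 18.3% of 27025 genes with a window. It was found in 4 of 9 windows of adult fast-fiber sarcomere genes, 7 of 12 of excitation-contraction coupling genes and 4 of 10 of acetylcholine receptor and denervation genes. Among all tested genes, the share was 18.4% of those called lower, 19.6% of those called higher and 17.9% of those not called. The window of Acta1 is at chr8:123894726-123895025 on the minus strand. It is printed beside that of Chrna1, a receptor subunit described below that rose, at chr2:73580289-73580588 on the minus strand, because both windows hold the same box. Each is given 5′ to 3′ with the box in capitals.
Acta1: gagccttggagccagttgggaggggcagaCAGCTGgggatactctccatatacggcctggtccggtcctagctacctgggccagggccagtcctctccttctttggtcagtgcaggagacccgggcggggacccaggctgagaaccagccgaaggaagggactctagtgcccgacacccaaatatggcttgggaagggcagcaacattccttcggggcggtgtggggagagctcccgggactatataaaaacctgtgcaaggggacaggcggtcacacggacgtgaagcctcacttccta
Chrna1: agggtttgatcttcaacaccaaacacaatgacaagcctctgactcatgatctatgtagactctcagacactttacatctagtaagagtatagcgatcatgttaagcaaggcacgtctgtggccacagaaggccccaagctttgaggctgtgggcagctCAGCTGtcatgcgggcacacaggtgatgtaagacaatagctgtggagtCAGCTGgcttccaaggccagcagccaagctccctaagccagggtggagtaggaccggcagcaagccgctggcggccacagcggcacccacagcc
The Acta1 window held 1 match and the Chrna1 window held 2. The same letters thus stood in front of a gene that fell and of a gene that rose.

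Slow-fiber sarcomere genes behaved unevenly. Of 12 tested, 5 fell, 1 rose and 6 were not called, with a median log2 fold change of -1.02. With library size alone, 4 were lower and 2 higher. The slow myosin light chain Myl2 was at 161, 318 and 71.9 CPM in the controls and at 0.225, 0.236 and 0.725 CPM in the severe mice (log2 fold change -8.86 ± 1.2 (SE), edgeR adjusted p = 0.00011). Myl3, its partner light chain, was at 158, 367 and 67.3 CPM against 0.451, 0.425 and 1.26 CPM. Myh7, the slow myosin heavy chain, was at 501, 1034 and 170.0 CPM against 3.09, 2.95 and 8.62 CPM (log2 fold change -6.86 ± 1.07 (SE), edgeR adjusted p = 0.00029). The controls differed among themselves by several fold, with mouse 1246 highest and mouse 1349 lowest for all 3 genes. The groups did not overlap, which the rule for the largest decreases required. Casq2, the calsequestrin of heart and slow fibers, was the member that rose (log2 fold change 1.43 ± 0.50 (SE), edgeR adjusted p = 0.027), but the call was lost without control mouse 1127 or 1349 (log2 fold change 1.19 and 1.18) and without severe mouse 1047 or 1079 (1.38 and 1.29). Tnni1, slow troponin I, chosen after its values were seen, did not follow the light chains. It was at 52.3, 112 and 16.9 CPM in the controls and 141, 101 and 180.01 CPM in the severe mice, and did not pass the test (log2 fold change 1.22 ± 0.74 (SE), edgeR adjusted p = 0.17).

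Embryonic and perinatal sarcomere genes rose in 6 of 8 cases and fell in 2, with a median log2 fold change of 2.89. Myh3, embryonic myosin (chr11:67078300-67102291), went from 10.2, 11.3 and 6.54 CPM to 1176, 775 and 1160 CPM (log2 fold change 6.80 ± 0.36 (SE), edgeR adjusted p = 5.9e-09). Tnnt2, the troponin T of heart and embryonic muscle, went from 1.76, 1.4 and 0.853 CPM to 96.4, 67.1 and 99.2 CPM (log2 fold change 6.04 ± 0.38 (SE), edgeR adjusted p = 1e-07). The 2 that fell were Mybph, a myosin-binding protein (log2 fold change -1.94 ± 0.27 (SE), edgeR adjusted p = 5.5e-05) that was not called with library size alone, and Actc1, cardiac actin, which was at 394, 702 and 1010 CPM in the controls and 406, 277 and 375 CPM in the severe mice, with overlap. The Actc1 fall (log2 fold change -0.99 ± 0.28 (SE), edgeR adjusted p = 0.0061) turned into a rise that was not called with library size alone (log2 fold change 0.31).

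Shares within a gene family do not depend on how libraries are scaled, and they were taken from the TPM values, which account for transcript length. Myh4 made up 93.2%, 84.2% and 95.6% of 6 myosin heavy chains in the controls and 59.6%, 80.2% and 70.0% in the severe mice. Myh3 made up 0.0126%, 0.0177% and 0.00926% and 18.9%, 7.23% and 11.1%. Perinatal Myh8 had 0.0108%, 0.017% and 0.00967% and 7.95%, 3.59% and 4.58%. Embryonic and perinatal myosins were thus present in every severe mouse beside a remaining majority of Myh4, and mouse 1047 held the largest embryonic share. Actc1 was 1.75%, 3.65% and 4.31% of striated actin in the controls and 19.6%, 13.3% and 14.8% in the severe mice, so its share was higher in every severe mouse although its level was not. Tnnt2 made up 0.00865% to 0.0141% of troponin T in the controls and 3.24% to 7.28% in the severe mice. Fast myosin heavy chain genes are close copies, and reads of 50 bases that match several of them were divided by RSEM, so their shares carry that uncertainty. The smallest two-sided p that exact permutation of 3 against 3 mice allows is 0.1, so these shares were not tested.

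**Figure D3:**
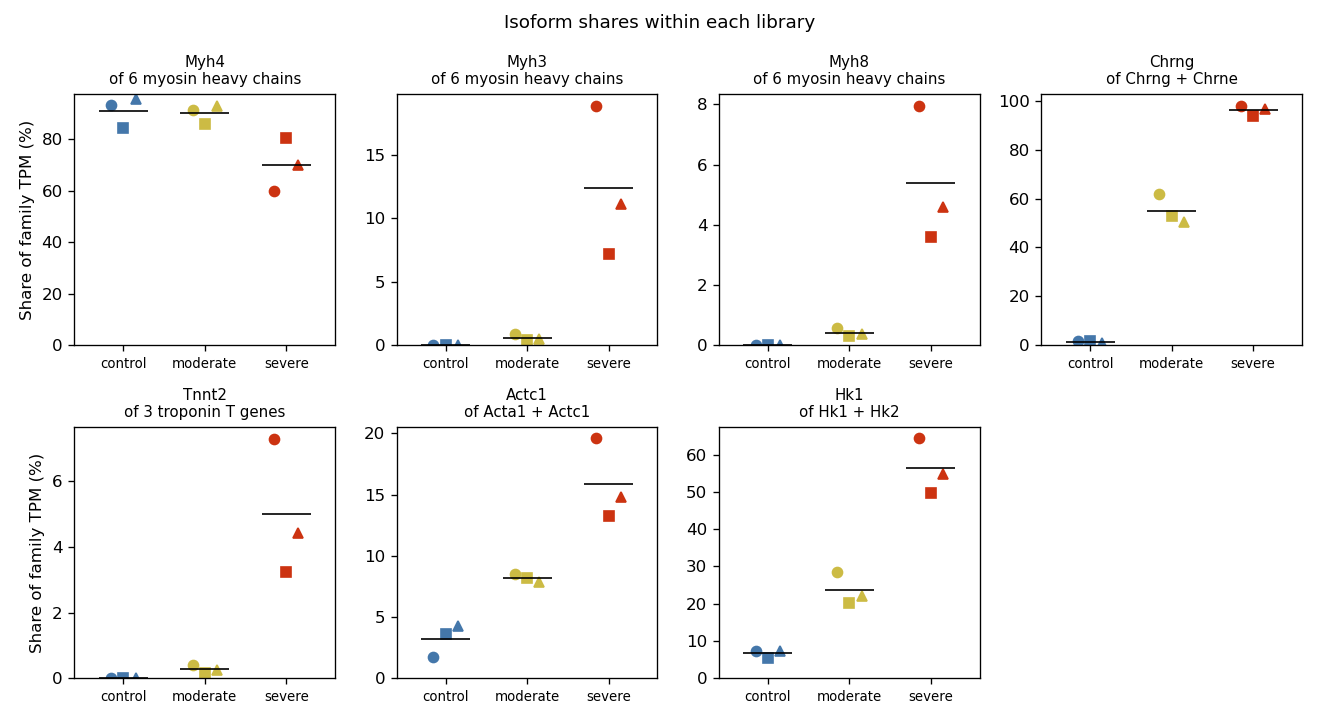
Share (%) of the summed TPM of each gene family held by 1 member, with 1 point per mouse and the group mean as a line. All 3 severe mice lie above all 3 controls for Myh3, Myh8, Chrng, Tnnt2, Actc1 and Hk1 and below them for Myh4.

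Z-disc and titin genes fell in 12 of 20 cases and rose in 4, but with library size alone 8 were higher and 7 lower. Ttn, which encodes titin, went from 100120, 85115 and 119000 CPM to 15733, 22439 and 18238 CPM (log2 fold change -2.43 ± 0.25 (SE), edgeR adjusted p = 6.1e-07). Tcap, the cap of titin at the Z-disc, went from 1223, 1498 and 904 CPM to 24.1, 39.6 and 43.9 CPM (log2 fold change -5.07 ± 0.30 (SE), edgeR adjusted p = 6.2e-09). Against this, Ankrd1, a stress-responsive partner of titin, rose from 5.91, 5.06 and 10.3 CPM to 101, 140.2 and 130.2 CPM (log2 fold change 4.12 ± 0.26 (SE), edgeR adjusted p = 2.6e-08). Mustn1, a small nuclear protein of muscle regeneration, rose as well (log2 fold change 1.67 ± 0.17 (SE), edgeR adjusted p = 9e-07). The 4 members that rose did so under both scalings.

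Excitation-contraction coupling links the electrical signal of the fiber membrane to calcium release. Of its 20 genes, 19 fell and 1 rose, with a median log2 fold change of -2.77, and 14 were still lower with library size alone. Ryr1, the calcium release channel, went from 3871, 2949 and 3604 CPM to 416, 515 and 472 CPM (log2 fold change -2.89 ± 0.18 (SE), edgeR adjusted p = 4.2e-09). Clcn1, the chloride channel that steadies the resting potential, went from 148, 121 and 128 CPM to 4.4, 11.4 and 10.2 CPM (log2 fold change -3.94 ± 0.31 (SE), edgeR adjusted p = 4.2e-07). Pvalb, a calcium buffer of fast fibers, had a log2 fold change of -4.91 ± 0.27 (SE). Sln, sarcolipin, an inhibitor of the calcium pump that is abundant in developing muscle, was the exception. It rose from 2.64, 1.3 and 0.569 CPM to 58.1, 98.8 and 109 CPM (log2 fold change 5.90 ± 0.43 (SE), edgeR adjusted p = 4.9e-07). Genes of the dystrophin complex and of membrane repair fell in 13 of 18 cases and rose in 1, with 6 higher and 6 lower when scaled by library size alone. Ano5, a membrane repair protein mutated in limb-girdle dystrophy, fell from 414, 380.4 and 457 CPM to 43.9, 48.3 and 53.9 CPM (log2 fold change -3.10 ± 0.13 (SE), edgeR adjusted p = 1.1e-10), and Dmd, dystrophin, fell too (log2 fold change -2.01 ± 0.14 (SE), edgeR adjusted p = 1.2e-08). Sntb1, a syntrophin that binds dystrophin and utrophin, was the 1 member that rose (log2 fold change 2.39 ± 0.14 (SE), edgeR adjusted p = 3.8e-09).

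Subunit genes of the acetylcholine receptor moved in opposite directions. Adult receptors contain the epsilon subunit (Chrne), and fetal or denervated muscle uses the gamma subunit (Chrng, chr1:87204657-87212694) in its place. Chrng had 2 counts summed over the 3 controls and 3815 summed over the 3 severe mice, which is a ratio of 910.2-fold (95% counting interval 252 to 7519) after scaling. Chrne went the other way, from 8.44, 7.85 and 8.39 CPM to 0.564, 1.37 and 0.821 CPM (log2 fold change -3.16 ± 0.24 (SE), edgeR adjusted p = 3.7e-08). Chrng thus made up 93.6% to 97.9% of the TPM of both subunits in the severe mice and 50.3% to 61.8% in the moderate mice. In the controls its share was at most 1.68%, a value set by TPM that RSEM gives to genes with 0 or 1 counts. Of all 16 genes of the receptor and of denervation, 8 rose and 2 fell, with a median of 0.49, and with library size alone 14 were higher and 1 lower. Chrna1, the alpha subunit, rose from 6.42, 8.14 and 9.72 CPM to 128, 110.3 and 123 CPM (log2 fold change 3.89 ± 0.22 (SE), edgeR adjusted p = 5.4e-09). Hdac4, a deacetylase that denervation raises, fell instead (log2 fold change -1.63 ± 0.12 (SE), edgeR adjusted p = 1.8e-08), though this fall was not called with library size alone.

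Satellite cell, myogenic and fusion genes rose in 13 of 20 cases and fell in 7, with a median log2 fold change of 1.93. No member was lower with library size alone. Pax7, the marker of satellite cells, was at 1.35, 1.78 and 2.18 CPM in the controls and 14.9, 9.79 and 10.3 CPM in the severe mice (log2 fold change 2.71 ± 0.22 (SE), edgeR adjusted p = 5.4e-08). Mymk, the myoblast fusion protein myomaker, was at 0.0518, 0.0482 and 0.19 CPM against 28.7, 16.7 and 24.3 CPM (log2 fold change 7.83 ± 0.49 (SE), edgeR adjusted p = 2e-08). Mymx, its partner myomixer, had 5 counts summed over the controls and 1434 over the severe mice, a ratio of 137-fold (95% counting interval 58.5 to 422). Both genes were near the detection limit in every control and well above it in every severe mouse. Myf6, the myogenic factor of mature fibers, was lower (log2 fold change -1.18 ± 0.15 (SE), edgeR adjusted p = 7.2e-06), but its log2 fold change was 0.12 with library size alone.

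Genes of energy metabolism were mostly lower. All 30 nuclear-encoded subunits of oxidative phosphorylation and all 15 genes of the mitochondrial genome were lower, with medians of -1.67 and -2.29. With library size alone, 11 of the 30 and all 15 were lower and none was higher. Cox6a2, a subunit of cytochrome c oxidase found in heart and skeletal muscle, fell from 378, 428 and 378 CPM to 19.8, 34.7 and 37.9 CPM (log2 fold change -3.68 ± 0.24 (SE), edgeR adjusted p = 1.4e-08). The core subunit Ndufs1 of complex I fell too (log2 fold change -1.82 ± 0.15 (SE), edgeR adjusted p = 8.4e-08). Among the mitochondrial transcripts mt-Nd1 fell from 2312, 2825 and 1944 CPM to 352, 472 and 419 CPM (log2 fold change -2.51 ± 0.19 (SE), edgeR adjusted p = 3.3e-08).

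Glycolysis and glycogen genes fell in 21 of 23 cases, with a median of -2.95. Pygm, the glycogen phosphorylase of muscle, fell from 8447, 6494 and 7942 CPM to 297, 586 and 539.7 CPM (log2 fold change -4.01 ± 0.25 (SE), edgeR adjusted p = 4.5e-09). Slc2a4, the insulin-responsive glucose transporter, fell from 388, 437 and 333 CPM to 10.6, 29.2 and 25.3 CPM (log2 fold change -4.16 ± 0.32 (SE), edgeR adjusted p = 2.1e-07), and Phkg1, a phosphorylase kinase subunit, had a log2 fold change of -4.38 ± 0.23 (SE). Hk1, the hexokinase of most other tissues, was the 1 member that rose, from 5.7, 6.65 and 6.78 CPM to 26.7, 28.2 and 24.3 CPM (log2 fold change 2.05 ± 0.10 (SE), edgeR adjusted p = 3.4e-10). Its share of Hk1 plus Hk2 went from 7.46%, 5.54% and 7.44% to 64.4%, 49.6% and 54.9%. Fatty acid oxidation genes fell in 15 of 20 cases, with 4 higher and 5 lower under library size alone. Cpt1b, the gate of fatty acid entry into mitochondria, fell from 245, 312 and 235 CPM to 26, 44.1 and 50.9 CPM (log2 fold change -2.71 ± 0.22 (SE), edgeR adjusted p = 1.5e-07), while Ppargc1a, the regulator PGC-1 alpha, was at 30.7, 38.1 and 31.5 CPM against 19.9, 30.2 and 26.1 CPM and did not reach the fold threshold (log2 fold change -0.40 ± 0.15 (SE), edgeR adjusted p = 0.028), although it was called higher with library size alone (log2 fold change 0.90) and lower without severe mouse 1066 (-0.54).

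The genes below that limit growth or drive atrophy fell under both scalings, while their lists did not do so as a whole. Mstn, myostatin, the secreted inhibitor of muscle growth, fell from 57, 45.5 and 89 CPM to 2.32, 2.92 and 2.68 CPM (log2 fold change -4.59 ± 0.34 (SE), edgeR adjusted p = 4e-07). Its receptor gene Acvr2b fell from 7.93, 6.79 and 8.01 CPM to 0.744, 0.826 and 1.09 CPM (log2 fold change -3.09 ± 0.18 (SE), edgeR adjusted p = 3.1e-09). Fbxo32, the ubiquitin ligase atrogin-1, fell from 126, 58.7 and 64.8 CPM to 10.1, 13.7 and 17.4 CPM (log2 fold change -2.59 ± 0.37 (SE), edgeR adjusted p = 0.0001). Fbxo40, a ligase that marks the insulin receptor substrate, fell too (log2 fold change -3.21 ± 0.26 (SE), edgeR adjusted p = 1.9e-07). Severe and control mice did not overlap for any of these 4 genes. Over the atrophy list, 10 of 15 fell and 1 rose, against 6 lower and 7 higher with library size alone. The myostatin and activin list had 4 lower and 3 higher of 10, and 2 lower and 5 higher with library size alone. Fstl1, a secreted follistatin-like protein, rose (log2 fold change 2.04 ± 0.17 (SE), edgeR adjusted p = 7.7e-08).

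Proteasome subunits depended on scaling throughout. With TMM, 11 of 30 were lower and none higher, with a median of -0.40, and with library size alone none was lower and 26 were higher. Psmb7 was at 196, 179 and 193 CPM in the controls and 78.6, 90.0 and 102 CPM in the severe mice (log2 fold change -1.07 ± 0.10 (SE), edgeR adjusted p = 2.8e-07), and had a log2 fold change of 0.23 with library size alone. Lysosome and autophagy genes moved both ways. Of 23, 10 rose and 9 fell, with a median of 0.25, against 16 and 2 with library size alone. The lysosomal protease Lgmn rose from 23.2, 26.7 and 22.7 CPM to 276, 229 and 221 CPM (log2 fold change 3.32 ± 0.14 (SE), edgeR adjusted p = 1.6e-10) and Ctsb, cathepsin B, rose as well (log2 fold change 1.90 ± 0.12 (SE), edgeR adjusted p = 3.9e-09). Pink1, the kinase that tags damaged mitochondria, fell from 888, 807 and 767 CPM to 63.3, 88.9 and 102 CPM (log2 fold change -3.28 ± 0.16 (SE), edgeR adjusted p = 4e-10), and Tfeb, a regulator of lysosomal genes, fell too (log2 fold change -2.75 ± 0.13 (SE), edgeR adjusted p = 4e-10).

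All 22 mitotic genes rose, with a median log2 fold change of 5.82, against 0.08 over all genes tested, and 21 of them were also higher than in the moderate mice. Mki67, the proliferation marker (chr7:135689784-135716361), went from 0.57, 0.819 and 1.66 CPM to 131, 101 and 93.1 CPM (log2 fold change 6.71 ± 0.24 (SE), edgeR adjusted p = 1.1e-10). Cdk1, the mitotic kinase, had 2 counts summed over the controls and 2006 over the severe mice, a ratio of 479-fold (95% counting interval 132 to 3955). Melk, a kinase of dividing cells, had 0 counts in all 3 controls and was at 8.12, 6.89 and 6.23 CPM in the severe mice, which is at least 145-fold higher when the controls are set to 3 counts over the group. The summed level of the list was 17.8, 14.5 and 20 CPM in the controls and 577, 513 and 478 CPM in the severe mice. Genes of DNA replication and the G1/S transition rose in 19 of 20 cases, with a median of 2.47. Rrm2, a subunit of the enzyme that makes deoxynucleotides, went from 0.622, 0.771 and 0.284 CPM to 40.2, 35.9 and 29.9 CPM (log2 fold change 5.98 ± 0.29 (SE), edgeR adjusted p = 1.1e-09).

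Because all listed mitotic genes moved together, their promoter windows were searched for 2 short motifs known in cell cycle genes, on both strands. They were the CCAAT box (CCAAT) and the cell cycle homology region (TTTGAA), which can share at most 1 base with each other. Of 18 mitotic genes with a window, 15 held the first, 12 the second and 12 both, against 41.1%, 20.2% and 8.97% of the 27025 genes. Among the 16 replication genes with a window the counts were 9 and 1. Of all tested genes with a window, the CCAAT box stood in 42.4% of those called higher, 43.3% of those called lower and 41.7% of those not called. For the homology region these shares were 15.7%, 13.5% and 14.7%. The 2 windows printed are the first on the list with both motifs, in capitals, for Mki67 at chr7:135716330-135716629 and for Ccnb2, cyclin B2, at chr9:70421505-70421804, both on the minus strand and both written 5′ to 3′.
Mki67: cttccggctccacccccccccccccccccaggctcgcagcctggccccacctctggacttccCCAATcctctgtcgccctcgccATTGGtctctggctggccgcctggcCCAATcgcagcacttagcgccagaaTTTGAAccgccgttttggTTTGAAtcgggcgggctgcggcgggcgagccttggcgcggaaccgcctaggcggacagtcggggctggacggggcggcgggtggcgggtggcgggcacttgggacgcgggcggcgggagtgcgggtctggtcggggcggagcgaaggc
Ccnb2: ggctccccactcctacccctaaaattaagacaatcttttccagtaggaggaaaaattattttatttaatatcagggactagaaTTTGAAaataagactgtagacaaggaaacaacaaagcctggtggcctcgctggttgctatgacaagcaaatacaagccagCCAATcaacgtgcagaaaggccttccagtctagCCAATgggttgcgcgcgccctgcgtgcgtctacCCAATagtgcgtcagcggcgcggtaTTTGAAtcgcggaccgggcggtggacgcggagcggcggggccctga
Each window held 3 CCAAT boxes and 2 homology regions, counted on both strands. A match is a description of the letters and not evidence of a bound site.

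Macrophage markers rose in 16 of 17 cases and fell in 1, with a median of 3.81, and their summed level went from 128, 120.0 and 146 CPM to 1481, 1362 and 1368 CPM. Adgre1, which encodes the F4/80 antigen, went from 6.22, 6.12 and 8.67 CPM to 102, 85.8 and 99.3 CPM (log2 fold change 3.77 ± 0.17 (SE), edgeR adjusted p = 3e-10). Trem2, a lipid-sensing receptor of phagocytes, went from 0.207, 0.337 and 0.332 CPM to 36.1, 28.6 and 28.5 CPM (log2 fold change 6.70 ± 0.21 (SE), edgeR adjusted p = 4e-11), and Cd68, a phagosome protein, from 1.45, 2.26 and 1.94 CPM to 76.6, 69 and 80.7 CPM. Nos2, the inducible nitric oxide synthase of inflammatory macrophages, was the member that fell, from 1.5, 0.771 and 1.28 CPM to 0.135, 0.33 and 0.193 CPM (log2 fold change -2.41 ± 0.37 (SE), edgeR adjusted p = 4.1e-05).

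Many markers of other leukocytes were too low to test. Of 11 neutrophil markers, 5 were abundant enough to be tested and 4 of these rose. S100a8, their most abundant cytosolic protein, was at 0.259, 0.578 and 0.19 CPM against 0.744, 0.991 and 0.773 CPM (log2 fold change 1.27 ± 0.41 (SE), edgeR adjusted p = 0.013), a call lost without control mouse 1127 or 1349 (log2 fold change 1.10 and 0.96). Csf3r, the receptor for granulocyte growth factor, was higher (log2 fold change 3.84 ± 0.29 (SE), edgeR adjusted p = 3.1e-08). Of 12 T and NK cell markers, 5 could be tested and 3 rose, among them Cd4, a co-receptor also found on some myeloid cells, at 0.259, 0.145 and 0.0948 CPM against 2.75, 1.96 and 3.33 CPM. The T cell marker Cd3e did not pass the low-count filter. Of 6 B cell markers, 2 could be tested and 1 fell. It was Ighm, the heavy chain of IgM, which fell from 29.6, 14.8 and 11.3 CPM to 3.31, 4.01 and 3.19 CPM (log2 fold change -2.40 ± 0.29 (SE), edgeR adjusted p = 1.7e-05), and was at 50.6, 49.5 and 54.8 CPM in the moderate mice.

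Complement genes rose in 13 of 16 cases and fell in 1, with a median of 1.67. C1qb, part of the recognition unit C1q, went from 7.36, 9.39 and 7.92 CPM to 161, 141 and 145 CPM (log2 fold change 4.18 ± 0.15 (SE), edgeR adjusted p = 5.9e-11), and C3ar1, the receptor for a fragment of C3, had a log2 fold change of 4.77 ± 0.17 (SE). Cd55, which protects host cells from complement, was the member that fell (log2 fold change -1.88 ± 0.14 (SE), edgeR adjusted p = 2.7e-08). Of 25 chemokines and cytokines, 22 could be tested, and 21 rose and 1 fell. Ccl2, which recruits monocytes, was at 0.155, 0.626 and 0.0948 CPM against 6.63, 7.08 and 4.64 CPM (log2 fold change 4.36 ± 0.47 (SE), edgeR adjusted p = 1.9e-06). Ccl3, another monocyte attractant, had 0 counts in the controls and was at 0.789, 0.708 and 0.507 CPM, at least 13.7-fold higher against 3 counts over the group. The inflammatory cytokine Il6, chosen after its values were seen, had 0 counts in the controls and was at 0.338, 0.259 and 0.266 CPM in the severe mice. Cxcl12, which retains stem cells, was the member that fell (log2 fold change -0.88 ± 0.15 (SE), edgeR adjusted p = 0.00011), but its log2 fold change was 0.43 and not called with library size alone.

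All 13 genes of MHC and antigen presentation rose, with a median of 1.44. H2-K1, a class I heavy chain, went from 58.7, 41.2 and 45.9 CPM to 134, 115 and 129 CPM (log2 fold change 1.38 ± 0.14 (SE), edgeR adjusted p = 7.6e-07), and Nlrc5, which activates class I genes, had a log2 fold change of 2.17 ± 0.23 (SE). Class I genes are close copies, and reads shared among them were divided by RSEM. Interferon-stimulated genes rose in 18 of 19 cases, with a median of 1.78, but the genes named here were at low levels. Isg15, a ubiquitin-like protein induced by interferon, was at 0.259, 0.385 and 0.711 CPM against 2.57, 1.53 and 1.64 CPM (log2 fold change 2.06 ± 0.38 (SE), edgeR adjusted p = 0.00024). Zbp1, a sensor of nucleic acids, was at 0.363, 0.193 and 0.569 CPM against 5.5, 3.84 and 3.65 CPM (log2 fold change 3.51 ± 0.36 (SE), edgeR adjusted p = 6.3e-07). A core of the interferon-stimulated response element (GAAA repeated with any 2 bases in between, both strands) stood in 8 of 14 windows of these genes, against 3.99% of the 27025 genes. It stood in 4.98% of all tested genes called higher and 2.87% of those called lower. The window of Isg15, at chr4:156200769-156201068 on the minus strand, is shown 5′ to 3′ as the first on the list with the core. Capitals mark 3 matches that overlap each other.
Isg15: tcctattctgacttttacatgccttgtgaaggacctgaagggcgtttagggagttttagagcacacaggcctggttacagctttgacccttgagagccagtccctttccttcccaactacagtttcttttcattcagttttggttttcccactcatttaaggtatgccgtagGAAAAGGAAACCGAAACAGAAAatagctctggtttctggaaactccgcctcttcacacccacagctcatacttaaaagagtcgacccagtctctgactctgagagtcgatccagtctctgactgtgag
All 3 matches thus lie in 1 block of the window.

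Collagens rose in 17 of 19 cases and none fell, with a median of 1.93. Col5a2, a fibril collagen chain, went from 36.7, 47 and 78.1 CPM to 562, 473 and 529.6 CPM (log2 fold change 3.27 ± 0.23 (SE), edgeR adjusted p = 3.3e-08), and Col8a1, a network collagen, from 5.03, 6.99 and 6.68 CPM to 153, 113 and 123 CPM. Col1a1, the main chain of type I collagen, was at 54.6, 114 and 549 CPM in the controls and 1225, 557 and 625 CPM in the severe mice. Control mouse 1349 lay well above both other controls, and Col1a1 did not pass the test (log2 fold change 1.75 ± 0.75 (SE), edgeR adjusted p = 0.063). Without that mouse it was called higher, with a log2 fold change of 3.23. Matricellular proteins and remodeling enzymes rose in 19 of 24 cases and fell in 4, and with library size alone 22 were higher and none lower. Tnc, tenascin C, went from 5.23, 9.06 and 20.6 CPM to 220.3, 159 and 179.9 CPM (log2 fold change 4.0 ± 0.48 (SE), edgeR adjusted p = 4e-05), and Timp1, an inhibitor of matrix proteases, from 0.259, 0.626 and 0.664 CPM to 37.1, 38.8 and 35.4 CPM (log2 fold change 6.14 ± 0.31 (SE), edgeR adjusted p = 1.9e-09). Timp3, the inhibitor that stays bound to the matrix, fell instead (log2 fold change -1.41 ± 0.15 (SE), edgeR adjusted p = 8.1e-07), a change that was not called with library size alone. TGF-beta ligands and receptors rose in 7 of 14 cases and fell in 4, against 10 and none with library size alone. Ltbp2, a latent TGF-beta binding family member, rose from 0.311, 0.482 and 0.948 CPM to 21.4, 10.1 and 10.8 CPM (log2 fold change 4.58 ± 0.42 (SE), edgeR adjusted p = 7.4e-07), and Smad3, the signal transducer, was lower (log2 fold change -1.62 ± 0.16 (SE), edgeR adjusted p = 8.5e-07) but not called with library size alone.

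For most lists of resident non-muscle cells the balance of directions rested on the scaling. Endothelial markers fell in 10 of 12 cases with TMM, and with library size alone 4 were higher and 1 lower. The 1 that was lower under both was Kdr, the main VEGF receptor, which went from 36, 37.8 and 40.5 CPM to 6.27, 8.02 and 7.66 CPM (log2 fold change -2.38 ± 0.23 (SE), edgeR adjusted p = 1.5e-06). Pecam1, the general endothelial marker, fell with TMM (log2 fold change -0.60 ± 0.12 (SE), edgeR adjusted p = 0.00059) and was called higher with library size alone (log2 fold change 0.70). Fibro-adipogenic progenitor markers had 3 higher and 4 lower of 10 with TMM, and 9 higher and none lower with library size alone. Pdgfra, their surface receptor, was at 55.6, 49.4 and 69.1 CPM against 90.2, 92.6 and 96.6 CPM (log2 fold change 0.68 ± 0.11 (SE), edgeR adjusted p = 5.6e-05). Tenocyte markers had 2 higher and 3 lower of 6, and 2 higher and 1 lower with library size alone. Smooth muscle and pericyte markers had 3 higher and 5 lower of 10, and 5 higher and 3 lower with library size alone. Acta2, smooth muscle actin, which myofibroblasts and new fibers also make, rose from 18.9, 29.6 and 18 CPM to 143, 91.7 and 122 CPM (log2 fold change 2.42 ± 0.24 (SE), edgeR adjusted p = 2e-06). Abcc9, a potassium channel subunit of pericytes that muscle fibers share, fell (log2 fold change -2.14 ± 0.14 (SE), edgeR adjusted p = 1e-08). Schwann cell markers fell in 5 of 9 cases and adipocyte markers in 6 of 8, and with library size alone each list had 1 higher and 1 lower. All 5 tested erythroid markers fell under both scalings, with a median of -3.02. They are carried by red blood cells, and the part of this difference in other results was not tested.

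Cell death and stress genes showed divided responses. BCL2 family, caspase and necroptosis genes rose in 17 of 22 cases and none fell, with a median of 1.02. Ripk3, the kinase of necroptosis, went from 0.311, 0.578 and 0.474 CPM to 3.72, 4.13 and 3.0 CPM (log2 fold change 2.97 ± 0.31 (SE), edgeR adjusted p = 7.8e-07). Among p53 and its targets 10 of 18 rose and 3 fell, and with library size alone 15 were higher and none lower. Cdkn1a, the cell cycle inhibitor p21, rose from 2.59, 0.915 and 1.33 CPM to 16.5, 11.9 and 13.3 CPM (log2 fold change 3.12 ± 0.25 (SE), edgeR adjusted p = 6.3e-08), and Pmaip1, the death protein NOXA, had 2 counts summed over the controls and 265 over the severe mice, a ratio of 63.2-fold (95% counting interval 17.3 to 525). Phlda3, a p53 target that restrains AKT, fell (log2 fold change -1.76 ± 0.10 (SE), edgeR adjusted p = 2.5e-09), though not with library size alone.

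The unfolded protein and integrated stress response had 9 higher and 6 lower of 18, against 13 and 1 with library size alone. Psat1, an enzyme of serine synthesis, rose from 2.02, 2.26 and 1.9 CPM to 39.4, 38 and 34.5 CPM (log2 fold change 4.18 ± 0.16 (SE), edgeR adjusted p = 7.6e-11). Chac1, which degrades glutathione, fell from 12.3, 11.8 and 5.45 CPM to 0.541, 0.519 and 0.386 CPM (log2 fold change -4.33 ± 0.29 (SE), edgeR adjusted p = 1.8e-08). Atf4, the factor known to activate both genes, was lower with TMM (log2 fold change -1.19 ± 0.09 (SE), edgeR adjusted p = 2.1e-08) and had a log2 fold change of 0.11 with library size alone. These targets of the same factor thus moved in opposite directions under either scaling. Of the genes listed as responsive to glucocorticoids, 5 rose and 6 fell of 14, against 8 and 2 with library size alone. The metallothionein Mt2, which metals and stress hormones induce, rose from 1.55, 2.07 and 1.75 CPM to 39.1, 89.4 and 60.4 CPM (log2 fold change 5.13 ± 0.51 (SE), edgeR adjusted p = 9.5e-06). Klf15, a glucocorticoid-induced factor of muscle, fell from 30.5, 30.3 and 24.3 CPM to 1.38, 2.52 and 2.46 CPM (log2 fold change -3.74 ± 0.21 (SE), edgeR adjusted p = 4.5e-09).

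Nonsense-mediated decay factors had 3 higher and 1 lower of 15 and a median of -0.02, and 15 higher with library size alone. Upf1, the helicase at the center of the pathway, was at 20.2, 19.8 and 20.7 CPM against 36.3, 34.1 and 33.5 CPM (log2 fold change 0.78 ± 0.08 (SE), edgeR adjusted p = 8e-07). Splicing regulators had 4 higher and 4 lower of 18, against 14 and 2 with library size alone. Mbnl1, the main muscleblind protein of adult muscle, fell from 842, 705 and 736 CPM to 170.0, 197 and 194 CPM (log2 fold change -2.03 ± 0.13 (SE), edgeR adjusted p = 5.8e-09), and Rbfox1, a splicing factor of muscle and nerve, fell too (log2 fold change -2.11 ± 0.17 (SE), edgeR adjusted p = 6.2e-08). Ptbp1, a splicing repressor of dividing cells, rose from 13.9, 13.3 and 15.9 CPM to 46.8, 39.5 and 34.4 CPM (log2 fold change 1.49 ± 0.13 (SE), edgeR adjusted p = 1.6e-07), and Mbnl3, the muscleblind protein of precursors, rose as well (log2 fold change 2.75 ± 0.24 (SE), edgeR adjusted p = 1.2e-07).

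Polyamine enzymes also split. Smox, spermine oxidase, fell from 125, 90.3 and 102 CPM to 6.76, 6.01 and 6.62 CPM (log2 fold change -4.03 ± 0.30 (SE), edgeR adjusted p = 2.3e-07), and Amd1, which supplies decarboxylated S-adenosylmethionine and has a close copy in Amd2, fell too (log2 fold change -2.60 ± 0.19 (SE), edgeR adjusted p = 5.2e-08). Sat1, which acetylates spermine and spermidine, rose from 13.8, 15 and 12.4 CPM to 57.9, 49.1 and 54.3 CPM (log2 fold change 1.97 ± 0.13 (SE), edgeR adjusted p = 5.4e-09). Over the list, 5 rose and 4 fell of 10, against 7 and 2 with library size alone. Circadian clock genes fell in 9 of 16 cases and none rose, against 7 higher and 3 lower with library size alone. Nr1d1, the repressor REV-ERB alpha, fell from 82, 42.4 and 83.8 CPM to 12.4, 12.1 and 8.62 CPM (log2 fold change -2.65 ± 0.30 (SE), edgeR adjusted p = 1.3e-05), and the output factor Dbp fell too (log2 fold change -2.62 ± 0.29 (SE), edgeR adjusted p = 8e-06). Both genes were also lower with library size alone. The controls differed among themselves, with Dbp at 72.9, 102 and 45.6 CPM. The paper gives no hour at which muscles were taken, and its part in these values was not tested. Immediate-early genes rose in 7 of 12 cases and fell in 1. Junb, an AP-1 subunit, rose (log2 fold change 1.96 ± 0.24 (SE), edgeR adjusted p = 1.1e-05), and Nr4a1, an orphan receptor induced by activity, was the member that fell (log2 fold change -2.52 ± 0.25 (SE), edgeR adjusted p = 2.3e-06).

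**Figure D4:**
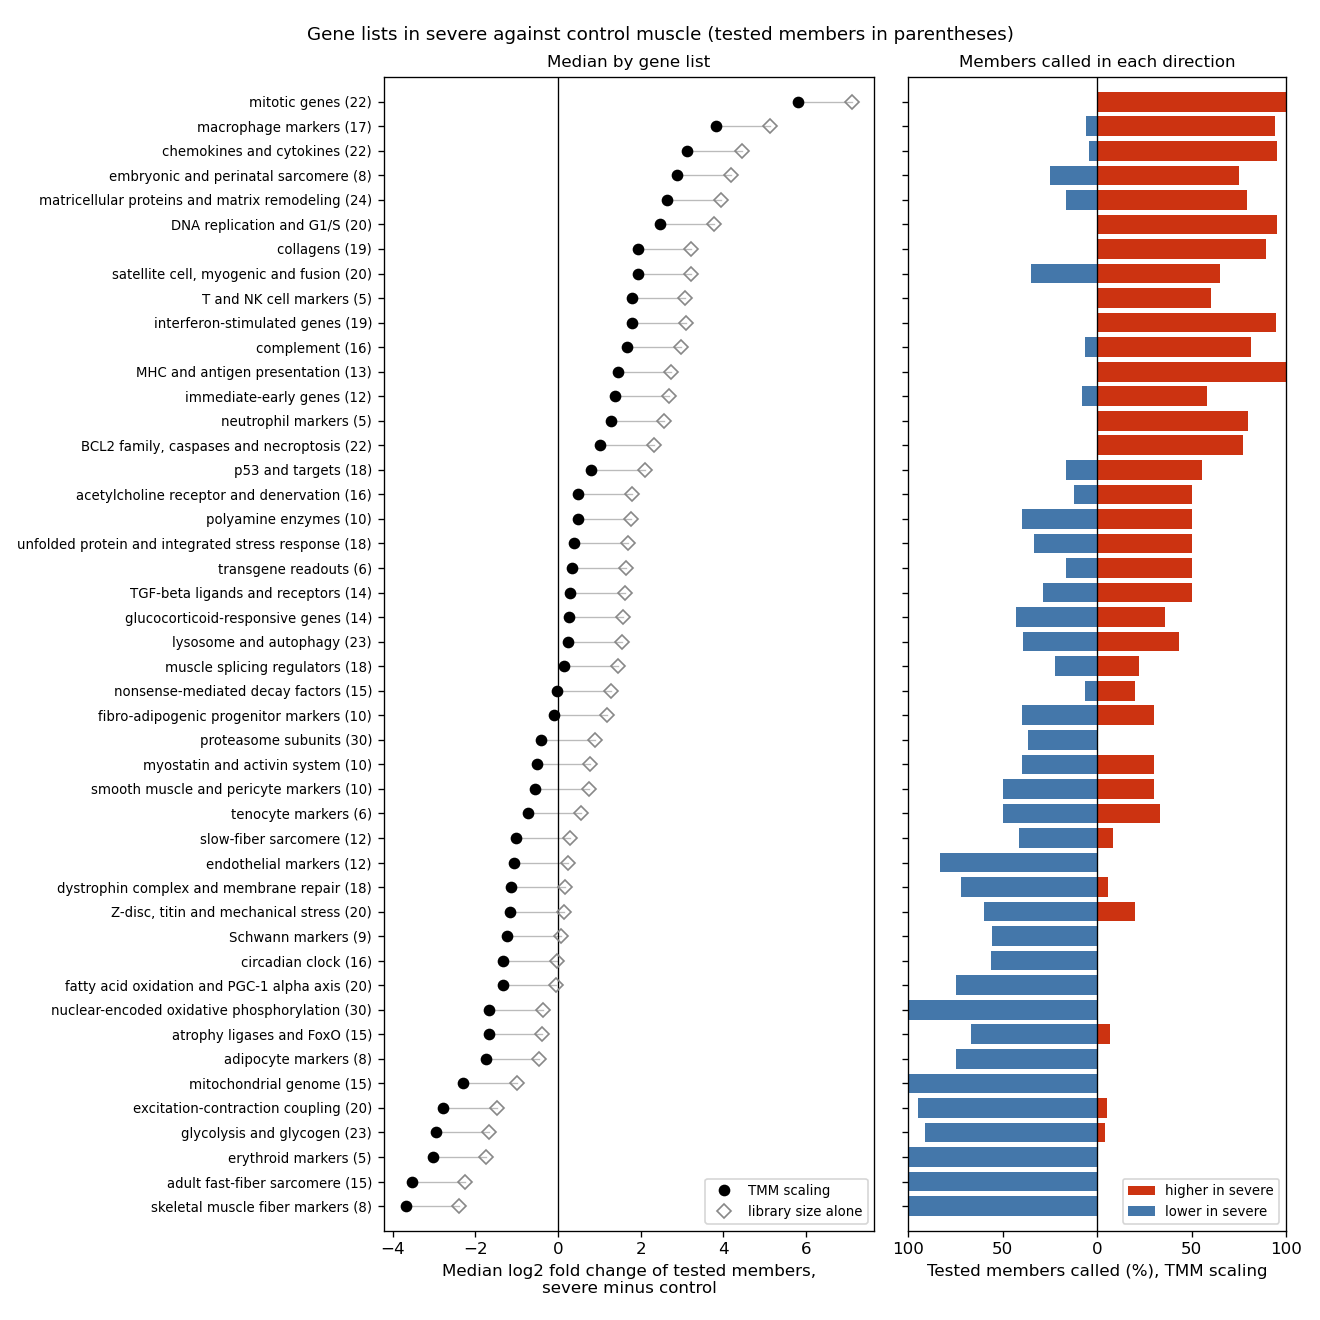
Left, the median log2 fold change (severe minus control) of the tested members of each list of 5 or more, with TMM scaling as filled points and library size alone as open diamonds. Right, the share of tested members (%) called higher or lower with TMM, where mitotic genes and MHC genes reach 100% higher and muscle fiber markers 100% lower.

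Against the moderate model, which has the same genotype and a lower TMX dose, 6082 of 16679 genes were called (36.5%), of which 2943 were higher in severe (17.6%) and 3139 lower (18.8%). With library size alone the counts were 9648 and 823. With TMM, the severe mice were lower for all 15 fast-fiber genes, all 30 oxidative phosphorylation genes and 19 of 20 excitation-contraction coupling genes. They were higher for 21 of 22 mitotic genes, 18 of 20 replication genes and 14 of 17 macrophage markers. The median log2 fold change of all genes in this contrast was 0.018 with TMM and 0.715 with library size alone. These list counts are thus relative to the bulk of the transcriptome, and counts with library size alone are not given for them. Several genes far above the controls did not pass the test between the models with TMM. Wfdc3 was at 91.8, 69.1 and 68 CPM in the moderate mice, and the severe group differed from them by a log2 fold change of 0.20 ± 0.22 (SE), edgeR adjusted p = 0.48. Trim36, the other DUX4 readout, was at 1.36, 1.59 and 1.73 CPM in the moderate mice, below all 3 severe mice, and was called higher in severe by a log2 fold change of 0.58 ± 0.21 (SE), edgeR adjusted p = 0.037. Ankrd1 was at 175, 113 and 153 CPM in the moderate mice and differed by -0.25 ± 0.22 (SE), edgeR adjusted p = 0.37. Sln was at 129, 83.2 and 117 CPM and differed by -0.31 ± 0.31 (SE), edgeR adjusted p = 0.43, and Prune2, a large cytoplasmic protein, was at 282, 247 and 339.9 CPM and differed by 0.19 ± 0.14 (SE), edgeR adjusted p = 0.29. With TMM, the moderate and severe values overlapped for Wfdc3, Ankrd1, Sln and Prune2. Before scaling, Wfdc3 had 2776, 3574 and 4790 counts in the severe mice and 2910, 2005 and 2083 in the moderate mice. The moderate libraries were the larger ones, so the Wfdc3 overlap rests on the scaling. Values with library size alone are not given here for the other 3 genes. Chrng, Myh3 and Mki67 were higher in severe than in moderate mice. Their log2 fold changes were 1.99 ± 0.20 (SE), edgeR adjusted p = 6.9e-06 for Chrng, 2.12 ± 0.28 (SE), edgeR adjusted p = 8.1e-05 for Myh3 and 1.66 ± 0.17 (SE), edgeR adjusted p = 7.2e-06 for Mki67.

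With TMM, the 3 severe mice did not lie equally far from the controls. For each list with 5 or more tested members, the mean log2(CPM + 1) was taken per severe mouse and set against the mean of the controls. Mouse 1047 lay farthest from the controls in 34 of 46 lists, and mice 1066 and 1079 in 6 each. For the muscle fiber markers the differences were -4.30 in mouse 1047, -3.51 in mouse 1066 and -3.57 in mouse 1079. For collagens they were 2.15, 1.80 and 1.87, and for glycolysis -2.96, -2.29 and -2.41. Wfdc3 did not follow this order, being lowest in mouse 1047. A few genes stand in more than 1 list and the 3 mice share their controls, so these counts are a description. Without mouse 1047, 2300 genes were higher and 2572 lower than in the moderate mice, and 5274 were higher and 4426 lower than in the controls.

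**Figure D5:**
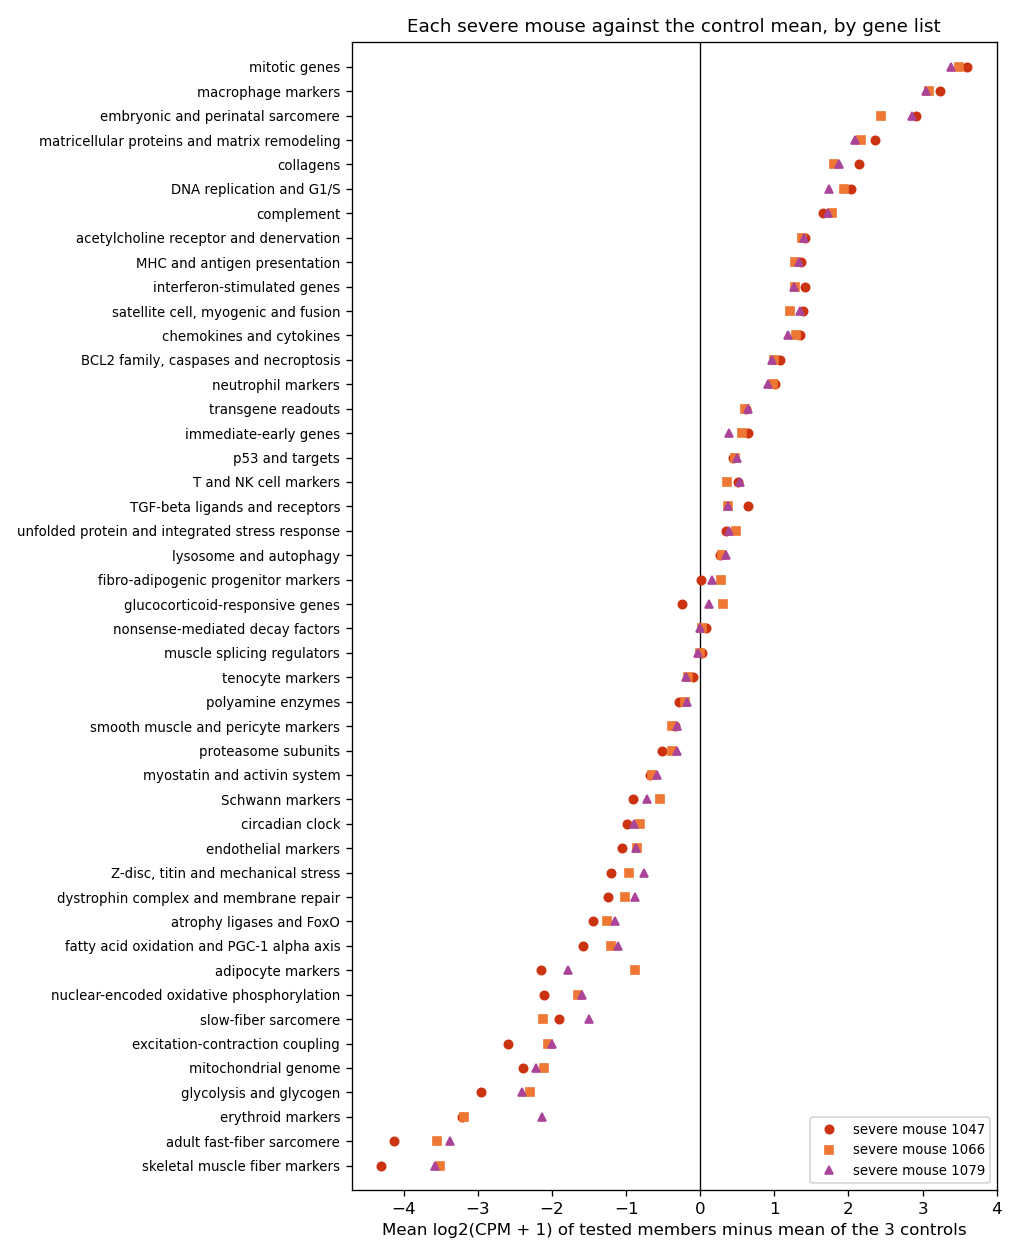
Mean log2(CPM + 1) of the tested members of each gene list in each severe mouse, minus the mean of the 3 controls. Mouse 1047 is farthest from 0 in 34 of 46 lists, and the 3 mice lie on the same side of 0 in most lists.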

How the data were processed

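Poly(A) RNA from gastrocnemius was sequenced from 12 mice in 4 groups of 3, with reads of 50 bases. The authors deposited expected counts per gene, estimated with RSEM (1.2.4) on mm10, and the submitters' processing notes also name Bowtie and TopHat2 (2.0.8b). The authors deposited TPM values per gene from the same run, scaled by transcript length and library total. The strand setting is not given in the sources used here. Of 37748 genes, 35982 had coordinates in GENCODE M21.

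Groups followed the labels. Expected counts were rounded and fitted for all 4 groups together with edgeR (4.0.16) in R (4.3.3), using filterByExpr, TMM and the robust quasi-likelihood test with Benjamini-Hochberg adjustment. All p-values measure the spread between 3 mice a group. Intervals and floors (3 counts) cover counting error only. On simulated counts of 14603 genes for severe against control, all 100 genes changed by a log2 of 1 and all 100 changed by 2 were recovered, and 8 of 14403 unchanged genes were called. The simulated libraries all had the control makeup, with equal numbers of genes raised and lowered. They lack the change in library makeup seen in the severe mice, so they do not test the scaling. Alternatives used limma (3.58.1) on log2(TPM + 1), DESeq2 (1.42.0), other scalings, filters and thresholds, and leaving out each mouse.

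Named genes were the 12 largest increases and 12 largest decreases of at least 100 CPM whose groups did not overlap, 5 readouts (Wfdc3, Trim36, Esr1, Myh3, Pax7), and, per list, the first gene listed with the 2 largest increases and 2 largest decreases. The comparison, its lists and this rule were chosen with earlier results of these data known. Promoter windows came from RefSeq (GRCm38.p6), with chromosome 18 left out. Some genes that the rule selects are not reported here.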

Additional observations from a re-analysis of the deposited data

How the results depend on the processing

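Scaling had the greatest effect. With library size alone, the calls against control were 12580 higher and 1070 lower, and those against moderate 9648 and 823. With limma on log2(TPM + 1) the counts were 10454 and 990, and 8047 and 635. A log2 threshold of 1 left 2928 lower than control, and 1356 higher and 1391 lower than moderate. Requiring every pair of mice to differ by 0.5 in log2 CPM left 1617 and 1822 against moderate. Median-of-ratios factors, DESeq2, the filters, the fit of 2 groups and the other thresholds kept each of the 4 counts within 1.5 times. Leaving out 1 mouse gave 5274 to 5523 higher and 4426 to 4656 lower than control, and 2300 to 2972 higher and 2572 to 3258 lower than moderate.

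Of the named genes, 7 reversed under library size alone and limma, respectively. Their log2 fold changes were 0.31 and 0.30 for Actc1, 0.11 and 0.021 for Atf4, 0.43 and 0.79 for Cxcl12, 0.12 and 0.0008 for Myf6, 0.70 and 0.60 for Pecam1, 0.90 and 0.91 for Ppargc1a, and 0.23 and 0.12 for Psmb7. The cause was not tested. No paired analysis was possible because the mouse numbers are not shared between groups. Genes near 3 counts in the controls, such as Chrng and Cdk1, have fold changes that their few counts leave imprecise.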
